A study of Mus musculus with 32 samples.

Results

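Eosinophil granule and receptor genes were followed in whole femur marrow of mice as a set of 9 genes taken by name out of 41388 in the count tables. The set holds the granule genes Prg2, Prg3, Epx, Ear1, Ear2, Ear6 and Ear10 and the receptor genes Il5ra and Ccr3, and all 9 were among the 14527 genes that passed the filter on low counts. RNA was sequenced in 32 libraries, 4 in each of 8 groups, and the series' design text gives 4 mice per group. DTRADQ mice carry a floxed diphtheria toxin receptor allele (DTR flox, from iDTR mice) together with adiponectin-Cre, so the Cre acts in cells that express, or whose forebears expressed, the adiponectin gene. Con mice are littermates that carry the same DTR flox allele and no Cre. All were 2 months old on a C57BL/6 background. DTRADQ and Con mice were taken without diphtheria toxin (no DT), or after 1, 2 or 3 days of DT injected daily at 100 ng per mouse, so that Con mice of the DT groups received the toxin too. The labels name no injection for the no DT groups.

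Eosinophils are granulocytes that mature in the marrow, where the cytokine interleukin 5 drives their growth and survival. During maturation they fill their granules with major basic protein, a peroxidase and ribonucleases, and the transcripts of these granule proteins are abundant in the marrow precursors. The mature cells follow chemokines of the eotaxin group through the receptor CCR3. In RNA from whole marrow, more cells of a type and more RNA per cell cannot be told apart.

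Totals per library ran from 8.97 to 22.93 M counts (M, 1e6). Adipoq, the adiponectin transcript that marks the targeted lineage, was at 28.6 to 47.6 CPM in DTRADQ without DT, against 43.2 to 134 CPM in Con without DT. It was at 0.221 to 1.07 CPM in the 12 DTRADQ libraries after DT, against 32.1 to 66.2 CPM in the 12 Con libraries after DT. Of the 4 Con libraries without DT, replicates 2, 3 and 4 had TMM scaling factors of 0.853, 0.726 and 0.565, below the 0.886 to 1.19 of the 28 libraries of the other groups, and replicate 1 (1.01) lay within that range. For the 9 genes, counts of calls that use these libraries are given with and without the 2 lowest. Counts for the lists of other genes and cell markers below use all 4 and were not repeated without them. Per the labels, day 3 libraries carry another lane label than the others, so setting day 3 against no DT also sets one label against another, which DTRADQ against Con within a day does not.

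The presence of eosinophil transcripts was plain in every library. Prg2 alone took from 0.365% to 1.57% of all counts of a library, and the 9 genes together from 0.457% to 1.89%. Per kilobase of exon, the median level over the 32 libraries was 8434 CPM per kb for Prg2, 465 for Ear6, 431 for Ear2, 230 for Prg3, 227 for Ear1, 147 for Epx, 20.5 for Ccr3, 3.96 for Il5ra and 0.871 for Ear10. The ranges of Ear6 (193 to 1402 CPM per kb), Ear2 (205 to 1279), Prg3 (124 to 704), Ear1 (81.6 to 995) and Epx (60.6 to 343) overlapped, so that their order is not settled by these medians, whereas the lowest Prg2 library (3747) lay above every other gene. Depth was lowest behind Il5ra, with 20 to 328 reads per library, and behind Ear10, with 1 to 961.

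At days 1 and 3 of DT, Prg2, Prg3, Epx, Ear2 and Ear6 were higher in DTRADQ marrow than in Con marrow, at day 2 no gene of the set passed, and without DT Prg2, Prg3, Ear1, Ear2 and Ear6 were lower in DTRADQ. The 4 other genes did not pass at day 1, where 0.888% of all genes tested were called higher and 3.02% lower, and the 5 called had all DTRADQ libraries above all Con libraries, as had 5.09% of all genes. At day 2 none of 9 passed, where 4.40% of all genes were called higher and 4.12% lower; 5 of the 9 had an unadjusted p under 0.05 in edgeR, DESeq2 called 3, and 5 had all DTRADQ libraries above all Con libraries, as had 10.7% of all genes. At day 3, 7 of 9 were higher (the 5 of day 1 with Il5ra and Ccr3), where 8.80% of all genes were called higher and 14.1% lower. All of these but Il5ra, 6 genes, had no overlap, as had 14.9% of all genes. Without DT, 5 of 9 were lower (Prg2, Prg3, Ear1, Ear2 and Ear6) and none higher, where 14.4% of all genes were called lower and 12.7% higher, and all 5 were without overlap, as were 5.42% of all genes. Over the 9 genes the median log2 change was −1.04 without DT and, on days 1, 2 and 3, 0.95, 0.61 and 1.11, against −0.01, −0.01, −0.04 and −0.02 over all genes tested. Here and below a gene is called when the p of edgeR's quasi-likelihood test, adjusted by Benjamini-Hochberg over all genes of the comparison, is under 0.05, and log2 changes are DTRADQ over Con unless stated.

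**Figure D1:**
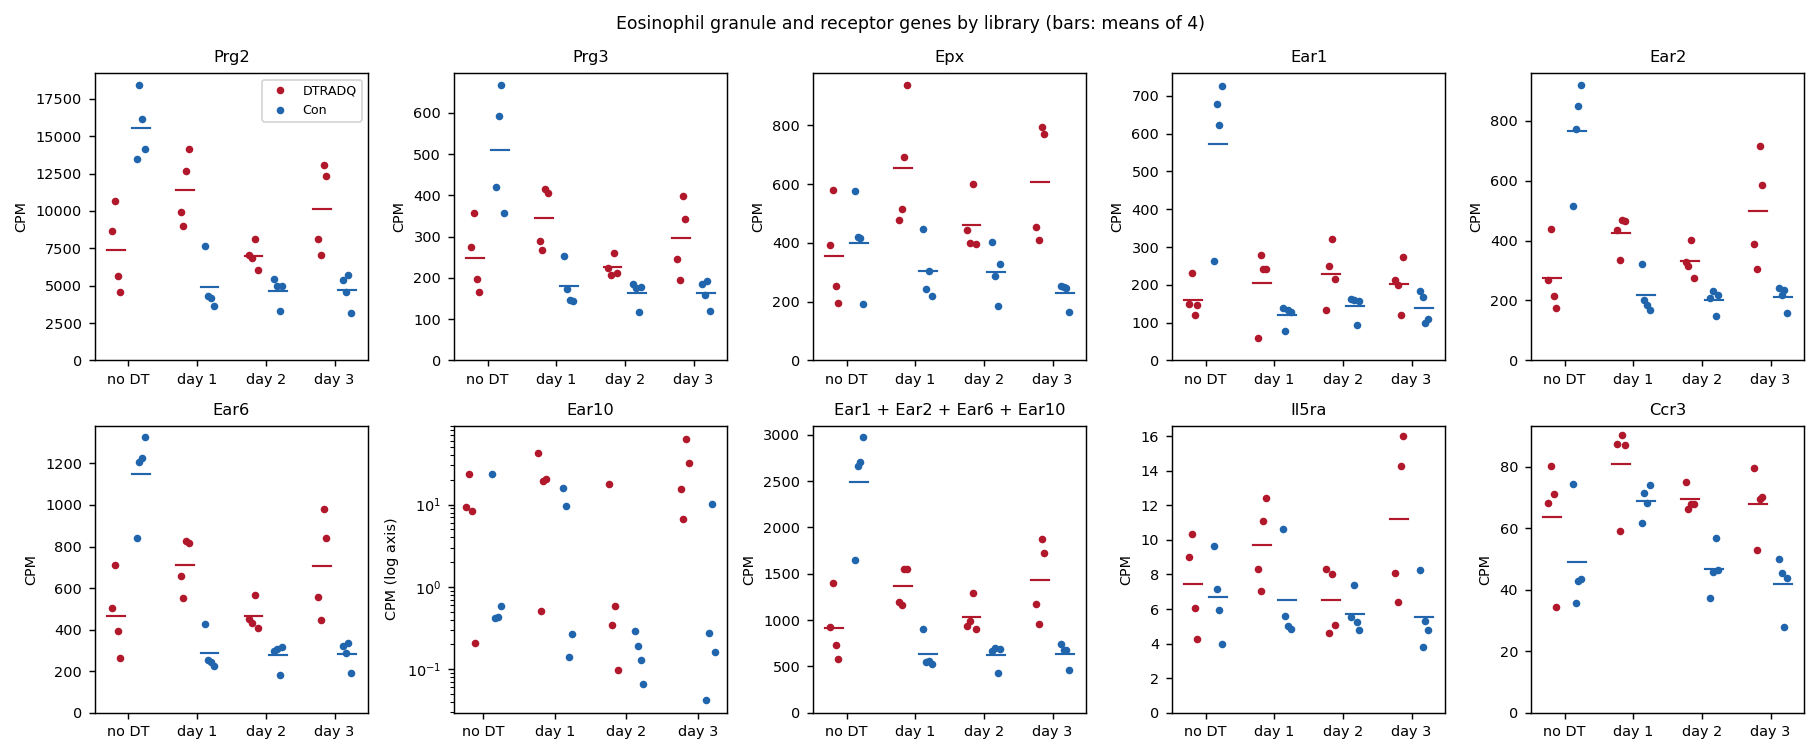
CPM (TMM scaled) of each gene and of the Ear sum in the 32 libraries, DTRADQ in red and Con in blue at each time, with a bar at the mean of 4 libraries; the Ear10 axis is logarithmic and has no mean bar. The mean of Con without DT is the highest of the 8 means for Prg2, Prg3, Ear1, Ear2 and Ear6, and at days 1 and 3 every DTRADQ library lies above every Con library of its day for Prg2, Prg3, Epx, Ear2 and Ear6.

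Prg2 and Prg3 encode major basic protein and its homolog, the cationic proteins of the granule core. They are neighbours on chromosome 2 of GRCm38, Prg2 (ENSMUSG00000027073) at 84980461 to 84983632 and Prg3 (ENSMUSG00000027072) at 84988215 to 84993886, both on the plus strand. Prg2 stood at 9922, 8984, 12650 and 14110 CPM in DTRADQ at day 1, against 7624, 4301, 4148 and 3640 CPM in Con. All 4 DTRADQ libraries were above all 4 Con libraries, with a log2 change of 1.21 (SE 0.27, adjusted p = 0.00649). At day 2 Prg2 was at 7067, 6828, 8150 and 6027 CPM in DTRADQ, against 5438, 4995, 3277 and 4972 CPM in Con, again without overlap but with a smaller difference that did not pass (log2 change 0.59, SE 0.27, adjusted p = 0.17). At day 3 the values were 8102, 7067, 13050 and 12340 CPM in DTRADQ, against 5388, 4562, 5723 and 3140 CPM in Con (log2 change 1.11, SE 0.27, adjusted p = 0.00335). Without DT the order was the opposite: Prg2 had 8634, 10660, 5677 and 4557 CPM in DTRADQ, against 13490, 18440, 16140 and 14130 CPM in Con (log2 change −1.07, SE 0.27, adjusted p = 0.00421). The Con libraries without DT were thus the 4 highest of their genotype, while the DTRADQ libraries without DT overlapped with those after DT.

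Prg3 followed the same course at a lower level. It averaged 344 ± 76.9 CPM in DTRADQ and 179 ± 50.7 CPM in Con at day 1 (SD, n = 4 each), with all 4 DTRADQ libraries higher (log2 change 0.94, SE 0.25, adjusted p = 0.0226). At day 3 it averaged 295 ± 91.9 CPM in DTRADQ and 165 ± 32.5 CPM in Con (log2 change 0.84, SE 0.25, adjusted p = 0.0123), and at day 2 it averaged 226 ± 24.1 CPM in DTRADQ and 164 ± 31.4 CPM in Con (log2 change 0.46, adjusted p = 0.244). Without DT it averaged 249 ± 85.7 CPM in DTRADQ and 510 ± 145 CPM in Con (log2 change −1.04, SE 0.25, adjusted p = 0.00244).

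Epx encodes eosinophil peroxidase, the heme enzyme of the granule matrix (ENSMUSG00000052234, chromosome 11, 87864000 to 87875536, minus strand). At day 1 it was at 477, 514, 691 and 939 CPM in DTRADQ, against 447, 243, 304 and 218 CPM in Con, and the nearest libraries of the 2 groups were close (log2 change 1.11, SE 0.32, adjusted p = 0.0425). At day 3 the groups were well apart, with 456, 408, 793 and 772 CPM in DTRADQ, against 254, 249, 247 and 166 CPM in Con (log2 change 1.41, SE 0.32, adjusted p = 0.00177). At day 2 the groups overlapped, with 397 to 600 CPM in DTRADQ, against 186 to 404 CPM in Con (log2 change 0.61, adjusted p = 0.233). Without DT the Epx groups overlapped, with 393, 581, 255 and 197 CPM in DTRADQ, against 575, 419, 415 and 192 CPM in Con (log2 change −0.17, SE 0.32, adjusted p = 0.736).

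The Ear genes encode the eosinophil-associated ribonucleases of the mouse, a family of the ribonuclease A type that includes many near copies. On chromosome 14 of GRCm38, Ear1 (ENSMUSG00000072601) runs from 43818765 to 43875517 and Ear10 (ENSMUSG00000090166) from 43922720 to 43923559, both on the minus strand. Ear2 (ENSMUSG00000072596) lies at 44102654 to 44103534 and Ear6 (ENSMUSG00000062148) at 51853699 to 51854643, both on the plus strand. The annotated span of Ear1 holds 3 other genes. Of the stretches of 50 bases in the annotated transcripts, 57.4% of those of Ear1, 41.5% of those of Ear2 and 39.9% of those of Ear10 occur in a transcript of another gene in GENCODE M21, mostly of the Ear family, against 0.954% for Ear6 and none for Prg2, Prg3, Epx and Ccr3. Reads of Ear1, Ear2 and Ear10 can thus be split between these genes or lost in counting, and their single values are uncertain.

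The copies resemble each other upstream of the transcript as well. RefSeq's sequences for GRCm38.p6 are shown here for the 250 bases before the start that RefSeq gives each gene (181 bases for Ear6, where the GENCODE exon begins earlier), 5′ to 3′ on the gene's strand, because Ear1, Ear2 and Ear10 differ in their counts although these stretches are nearly the same. Capitals mark bases that have no identical partner in the aligned Ear2 sequence. The windows are chr14:44102404-44102653 (plus strand) for Ear2, chr14:43819640-43819889 (minus strand) for Ear1, chr14:43923597-43923846 (minus strand) for Ear10 and chr14:51853518-51853698 (plus strand) for Ear6. RefSeq's start is that of the span given above for Ear2, but it lies 55878 bases inside the span of Ear1 and 37 bases upstream of that of Ear10.
Ear2: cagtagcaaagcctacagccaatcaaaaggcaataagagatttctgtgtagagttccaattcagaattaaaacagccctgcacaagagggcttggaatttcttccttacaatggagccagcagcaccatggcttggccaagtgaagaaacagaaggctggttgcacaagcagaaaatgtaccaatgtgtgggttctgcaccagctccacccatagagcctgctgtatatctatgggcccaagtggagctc
Ear1: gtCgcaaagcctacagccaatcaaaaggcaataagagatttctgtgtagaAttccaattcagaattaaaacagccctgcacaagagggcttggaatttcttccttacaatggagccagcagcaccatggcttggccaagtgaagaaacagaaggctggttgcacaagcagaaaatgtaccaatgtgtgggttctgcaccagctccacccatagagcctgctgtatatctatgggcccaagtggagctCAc
Ear10: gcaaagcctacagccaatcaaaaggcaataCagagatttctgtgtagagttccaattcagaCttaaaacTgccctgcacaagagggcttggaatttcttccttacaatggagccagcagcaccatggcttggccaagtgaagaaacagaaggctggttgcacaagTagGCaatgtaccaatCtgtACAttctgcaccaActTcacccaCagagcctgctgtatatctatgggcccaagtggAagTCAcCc
Ear6: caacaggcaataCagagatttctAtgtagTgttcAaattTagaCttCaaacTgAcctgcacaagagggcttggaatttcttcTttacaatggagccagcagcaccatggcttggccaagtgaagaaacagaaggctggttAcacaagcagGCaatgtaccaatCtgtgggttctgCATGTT
Identity with Ear2 was taken over the alignment of the full 250 bases, gaps counted in its length. It was 97.6% for Ear1 (246 of 252 positions), 91.0% for Ear10 (232 of 255) and 77.7% for Ear6 (212 of 273). For Ear6 this alignment includes GENCODE exon bases that are not printed above.

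Because of the shared reads, the sum of Ear1, Ear2, Ear6 and Ear10 is given as well. It was at 1193, 1165, 1555 and 1546 CPM in DTRADQ at day 1, against 905, 545, 562 and 522 CPM in Con, all 4 DTRADQ libraries being higher (log2 change 1.11, SE 0.25, adjusted p = 0.00773). At day 3 the sum was 1170, 960, 1878 and 1729 CPM in DTRADQ, against 742, 675, 678 and 460 CPM in Con (log2 change 1.17, SE 0.26, adjusted p = 0.00106). At day 2 it was 934, 994, 1287 and 901 CPM in DTRADQ, against 666, 699, 425 and 691 CPM in Con. These groups did not overlap either, and the day 2 difference did not pass across all genes (log2 change 0.73, SE 0.25, adjusted p = 0.0660), while an exact two-sided permutation test of the sum alone gave p = 0.0286, the smallest that 4 against 4 allow. Without DT the sum was 930, 1405, 736 and 585 CPM in DTRADQ, against 1645, 2659, 2701 and 2972 CPM in Con (log2 change −1.45, SE 0.26, adjusted p = 0.000118). Summed over all 14 Ear genes of the tables, 9 of them pseudogenes, the log2 change was −1.40 without DT and 1.13, 0.76 and 1.25 at days 1, 2 and 3.

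Ear2 and Ear6, the most abundant of the 4, carried the sum. Ear6 took from 41.7% to 55.0% of its reads and Ear2 from 28.7% to 38.1%. Ear6 averaged 713 ± 134 CPM in DTRADQ and 288 ± 94.4 CPM in Con at day 1 (log2 change 1.31, adjusted p = 0.00243) and 705 ± 246 CPM in DTRADQ and 284 ± 64 CPM in Con at day 3 (log2 change 1.31, adjusted p = 0.000533). Ear2 averaged 426 ± 62.1 CPM in DTRADQ and 220 ± 68.5 CPM in Con at day 1 (log2 change 0.95, adjusted p = 0.0283) and 498 ± 186 CPM in DTRADQ and 213 ± 36.9 CPM in Con at day 3 (log2 change 1.23, adjusted p = 0.000762). At day 2 both had all DTRADQ libraries above all Con libraries without passing (Ear2 0.72, adjusted p = 0.0765; Ear6 0.75, adjusted p = 0.0720). Without DT they were lower in DTRADQ, Ear2 by a log2 change of −1.48 (adjusted p = 0.000119) and Ear6 by −1.30 (adjusted p = 0.000624).

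After DT, Ear1 did not pass on any day. It was at 59.6, 280, 242 and 243 CPM in DTRADQ at day 1, against 140, 77.6, 133 and 128 CPM in Con. On day 2 it was at 133, 249, 320 and 216 CPM in DTRADQ, against 163, 159, 95.0 and 156 CPM in Con. On day 3 it was at 212, 200, 121 and 273 CPM in DTRADQ, against 183, 168, 99.7 and 109 CPM in Con. The groups overlapped on each of the 3 days, and the log2 changes of 0.78, 0.68 and 0.53 did not pass (adjusted p = 0.247, 0.223 and 0.292). Without DT, Ear1 was at 149, 230, 120 and 146 CPM in DTRADQ, against 264, 679, 623 and 726 CPM in Con, the largest fall of the set among called genes (log2 change −1.83, SE 0.36, adjusted p = 0.000344).

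Ear10 fell into 2 separate ranges of reads, with none between 8 and 121. It had 179, 456, 121 and 3 reads in DTRADQ without DT, against 342, 5, 3 and 3 in Con, and 571, 7, 253 and 212 reads in DTRADQ at day 1, against 263, 150, 2 and 4 in Con. At day 2 it had 226, 4, 8 and 1 reads in DTRADQ, against 5, 3, 2 and 1 in Con, and at day 3 it had 281, 121, 961 and 650 reads in DTRADQ, against 1, 7, 224 and 4 in Con. The upper range thus held 11 of 16 DTRADQ and 4 of 16 Con libraries. In the model of all groups no comparison of genotypes passed for Ear10 (adjusted p = 0.783 without DT and 0.539, 0.148 and 0.0519 on days 1, 2 and 3), and its log2 changes of 0.55, 1.64, 4.72 and 3.49 had SEs of 1.24, 1.22, 2.07 and 1.31. The day 3 value lies close to the threshold: with same-numbered libraries as pairs it passed (4.68, adjusted p = 0.00829), as it did in 6 other settings with an adjusted p of 0.0122 to 0.0496 and in 12 of 32 fits that left out 1 library, and it did not pass with library totals (adjusted p = 0.0686) or DESeq2 (adjusted p = 0.0711). DESeq2 alone called Ear10 at day 2 (4.78, adjusted p = 0.027). Leaving out 1 library moved the log2 change between 1.07 and 5.11 at day 2 and between 2.82 and 7.41 at day 3, the highest of these without Con replicate 3 of day 3. Libraries in the upper range also had fewer Ear1 reads for each Ear2 read, 0.137 to 0.656, against 0.644 to 0.881 in the other 17 libraries. The 2 lowest ratios, 0.137 and 0.17, were those of DTRADQ replicate 1 at day 1 and DTRADQ replicate 3 at day 3. The part of these ranges in the Ear1 and Ear10 comparisons was not tested.

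**Figure D2:**
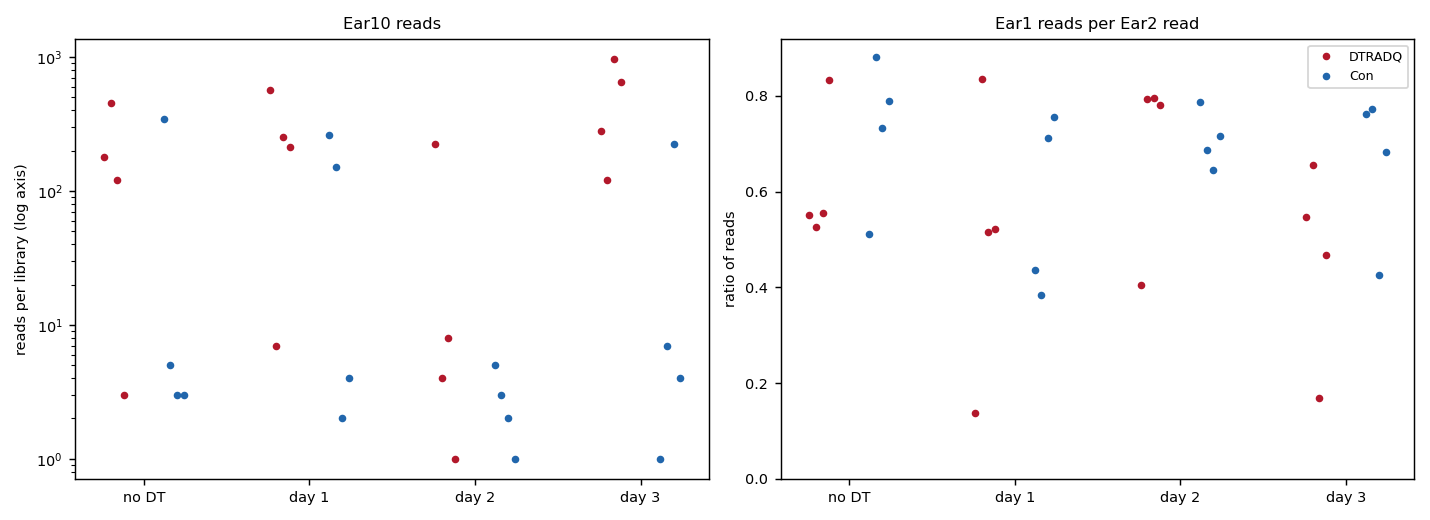
Left, reads of Ear10 in each library on a logarithmic axis; right, Ear1 reads per Ear2 read, with DTRADQ in red left of Con in blue at each time. Ear10 has 121 to 961 reads in 15 libraries and 1 to 8 in 17, and the ratio on the right is 0.656 or lower in the 15 and 0.644 or higher in the 17.

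Il5ra encodes the alpha chain of the interleukin 5 receptor, which gives the receptor its specificity (ENSMUSG00000005364, chromosome 6, 106711975 to 106745109, minus strand). Its level was low throughout. At day 3 it was at 8.06, 6.42, 14.3 and 16.0 CPM in DTRADQ, against 8.23, 3.79, 5.32 and 4.78 CPM in Con, 1 Con library overlapping with the DTRADQ range (log2 change 1.02, SE 0.31, adjusted p = 0.0162). At day 1 it was at 7.07 to 12.4 CPM in DTRADQ, against 4.85 to 10.6 CPM in Con (log2 change 0.57, adjusted p = 0.380), and at day 2 at 4.63 to 8.33 CPM in DTRADQ, against 4.79 to 7.37 CPM in Con (log2 change 0.19, adjusted p = 0.760). Without DT it was at 4.29 to 10.4 CPM in DTRADQ, against 3.95 to 9.64 CPM in Con (log2 change 0.12, adjusted p = 0.831).

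Ccr3 encodes the chemokine receptor through which eotaxins act (ENSMUSG00000035448, chromosome 9, 124021971 to 124031689, plus strand). At day 3 it was at 79.6, 52.9, 69.5 and 70.1 CPM in DTRADQ, against 50, 45.6, 28.0 and 43.8 CPM in Con, without overlap (log2 change 0.70, SE 0.21, adjusted p = 0.0168). At day 2 it was at 75.3, 66.4, 68.1 and 68.0 CPM in DTRADQ, against 37.4, 46, 56.8 and 46.5 CPM in Con, also without overlap, and did not pass (log2 change 0.57, SE 0.21, adjusted p = 0.0893). At day 1 the groups overlapped, with 59.3 to 90.3 CPM in DTRADQ, against 61.7 to 74.0 CPM in Con (log2 change 0.24, adjusted p = 0.635). Without DT, Ccr3 was at 34.3 to 80.3 CPM in DTRADQ, against 35.6 to 74.4 CPM in Con (log2 change 0.37, adjusted p = 0.215). Neither receptor gene was lower in DTRADQ without DT, in contrast to Prg2, Prg3, Ear1, Ear2 and Ear6; the difference between genes was not tested.

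**Figure D3:**
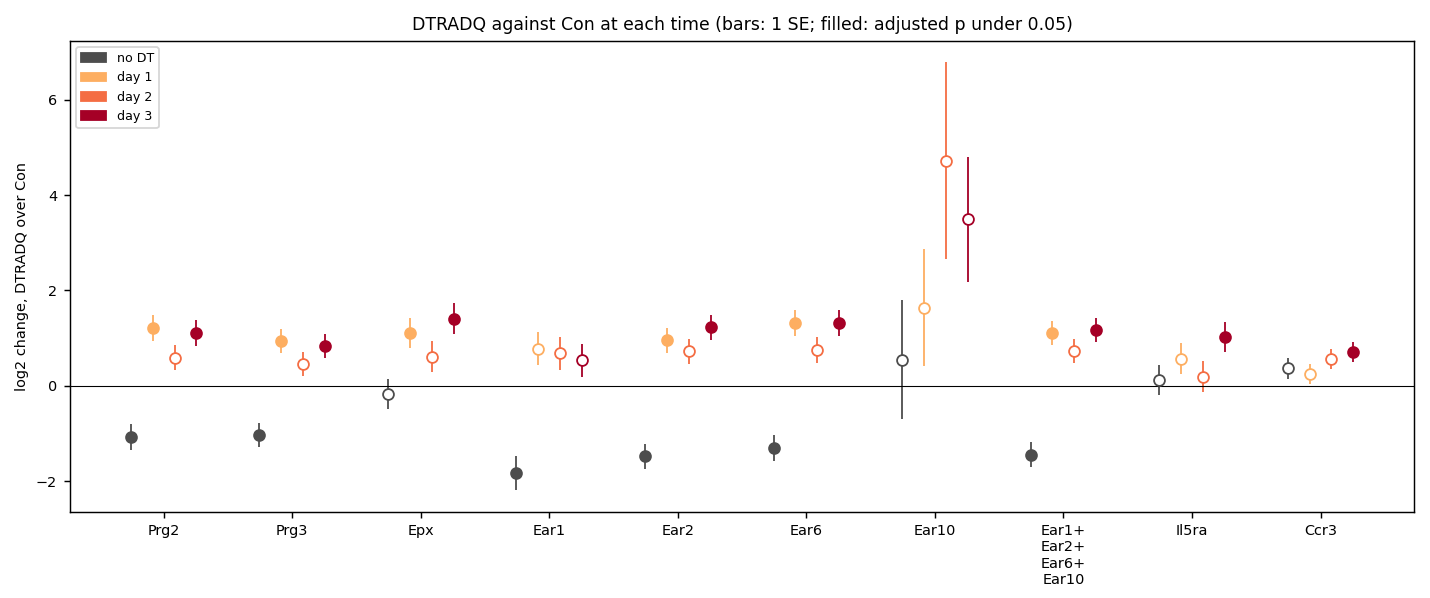
Log2 change of DTRADQ over Con for each gene and the Ear sum without DT and at days 1, 2 and 3, with bars of 1 SE; filled points had an adjusted p under 0.05 in edgeR. Prg2, Prg3, Ear2, Ear6 and the Ear sum are below 0 without DT and above 0 on the 3 days, and Ear10 has the widest bars.

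The upstream sequences of Prg3, Epx, Il5ra and Ccr3 are shown because these genes, which are on 4 chromosomes, were all higher in DTRADQ at day 3. GATAA is the core of the sites bound by GATA1, a factor required for eosinophil development, and it was searched on both strands (TTATC on the other) in the 250 bases before RefSeq's start of the 8 genes that its table holds. For Prg3, Epx and Ccr3 that is the start of the span given above, and for Il5ra it lies 3928 bases upstream of it. It occurred 2 times before Prg3 (from 123 and 111 bases before the start), once before Il5ra (73 bases) and once before Ccr3 (29 bases), and it was not found in the windows of Epx and the 4 Ear genes. Of 32851 windows of this length, 22.6% hold it. The 150 bases next to the start follow, with GATAA on either strand in capitals, from chr2:84988065-84988214 (plus strand) for Prg3, chr11:87875537-87875686 (minus strand) for Epx, chr6:106749038-106749187 (minus strand) for Il5ra and chr9:124021821-124021970 (plus strand) for Ccr3.
Prg3: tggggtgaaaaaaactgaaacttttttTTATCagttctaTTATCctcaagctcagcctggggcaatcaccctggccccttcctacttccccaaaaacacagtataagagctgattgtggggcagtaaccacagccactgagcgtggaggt
Epx: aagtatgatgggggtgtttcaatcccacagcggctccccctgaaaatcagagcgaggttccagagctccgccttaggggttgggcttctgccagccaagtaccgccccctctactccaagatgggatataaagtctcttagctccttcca
Il5ra: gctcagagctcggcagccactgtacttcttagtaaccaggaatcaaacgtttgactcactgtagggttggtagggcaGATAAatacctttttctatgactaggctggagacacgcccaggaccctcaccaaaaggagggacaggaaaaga
Ccr3: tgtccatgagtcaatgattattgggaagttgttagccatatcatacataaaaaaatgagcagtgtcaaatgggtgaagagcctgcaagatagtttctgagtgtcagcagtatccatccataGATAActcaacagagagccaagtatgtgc
A second motif, TTGCNNAA (TTNNGCAA on the other strand), of the kind bound by C/EBP factors, occurred in the windows of Ear1, Ear2 and Ear10, from 92, 90 and 94 bases before the start, and in none of the other 5. Of all windows 9.56% hold it. The Ear1, Ear2 and Ear10 windows are near copies and hold it in the same aligned stretch, so these matches are not independent of each other. A match of letters describes the sequence and is not a bound site.

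The difference between genotypes after DT was compared with that without DT in 1 test (genotype by DT). At day 1, 5 of 9 genes had a higher value of this difference (Prg2 2.29, Prg3 1.97, Ear1 2.61, Ear2 2.43 and Ear6 2.61 on the log2 scale), where 12.3% of all genes were called in either direction. At day 2 the same test called 5 (Prg2 1.66, Prg3 1.49, Ear1 2.51, Ear2 2.19 and Ear6 2.05), where 11.1% of all genes were, and at day 3 it called 6 (Prg2 2.18, Prg3 1.88, Epx 1.57, Ear1 2.36, Ear2 2.70 and Ear6 2.61), where 21.0% were. Il5ra and Ccr3 did not pass on any day (adjusted p = 0.155 and 0.477 at day 3). The comparison rests on the Con libraries without DT, 3 of which have the low scaling factors given above. Without Con replicates 3 and 4 of that group, it called 6, 5 and 6 genes at days 1, 2 and 3.

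Set against no DT within each genotype, the 2 genotypes took different courses. Within DTRADQ, none of 9 genes passed at day 1 (5.48% of all genes called in either direction) or at day 2 (9.11% of all genes). In edgeR, 4 members had an unadjusted p under 0.05 at day 1 and 0 at day 2. At day 3 1 gene passed, Ear2, with a log2 change of 0.86 (SE 0.26, adjusted p = 0.0121), where 12.5% of all genes were called higher. Within Con, 5 genes were lower at day 1 (Prg2, Prg3, Ear1, Ear2 and Ear6), where 17.4% of all genes were called lower, and 5 at day 3, where 15.4% were. At day 2, 6 were lower, Ear10 with them, where 14.4% of all genes were. The Ear10 call rests on Con replicate 1 without DT, which had 342 reads, against 3 to 5 in the other 3. Without that library its log2 change was −1.38 (adjusted p = 0.788), and it did not pass in 12 of 32 fits that left out 1 library, with voom or with the replicate number as a block. Without Con replicates 3 and 4 of no DT, 5, 6 and 6 genes were lower at days 1, 2 and 3. Prg2 changed within Con by −1.66, −1.74 and −1.73 at days 1, 2 and 3 and Ear6 by −2.0, −2.06 and −2.02 on the log2 scale. Without those 2 libraries the values were −1.68, −1.76 and −1.75 for Prg2 and −1.82, −1.88 and −1.84 for Ear6. The Ear sum fell to 522 to 905 CPM in Con at day 1, against 1645 to 2972 CPM in Con without DT, with no overlap. Epx changed by −0.40, −0.41 and −0.81, Il5ra by −0.08, −0.27 and −0.32 and Ccr3 by 0.48, −0.08 and −0.24, none of which passed. Comparisons with no DT share the same no DT libraries, and those of day 3 follow the lane label.

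Ratios of reads within a library do not depend on scaling between libraries. Epx had 1.36 to 4.26 reads per 100 Prg2 reads in Con without DT, against 4.32 to 7.43 in the other 28 libraries. Ccr3 had 0.193 to 0.552 reads per 100 Prg2 reads in Con without DT, against 0.753 to 1.26 in DTRADQ without DT, but it overlapped with the 0.532 to 0.983 of DTRADQ and the 0.489 to 1.40 of Con at day 3. After DT, Prg3 had fewer reads per 100 Prg2 reads in DTRADQ than in Con at day 1 (2.87 to 3.28 in DTRADQ, against 3.32 to 4.00 in Con) and at day 3 (2.75 to 3.04 in DTRADQ, against 3.38 to 3.84 in Con), without overlap. At day 2 these ratios overlapped, with 3.01 to 3.53 in DTRADQ, against 3.41 to 3.58 in Con. Ear6 had more reads per Ear2 read in DTRADQ at day 1, 1.51 to 1.77, against 1.26 to 1.33 in Con. These ratios were looked at after the values were seen, and no test was made.

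**Figure D4:**
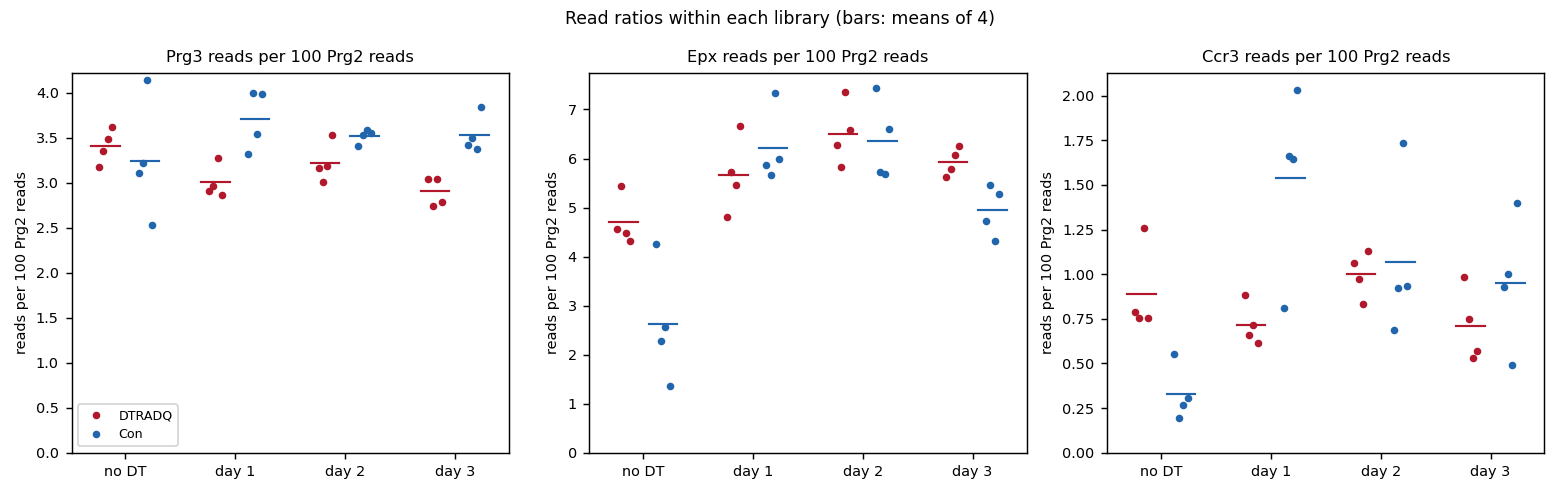
Reads of Prg3, Epx and Ccr3 per 100 Prg2 reads in each library, DTRADQ in red left of Con in blue at each time, with a bar at the mean of 4. The Con libraries without DT have the lowest Epx ratios, and the Prg3 ratio is lower in every DTRADQ library than in every Con library at days 1 and 3.

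Library scaling matters to these results, since TMM factors differed between the groups. With library totals alone, the median log2 change of all genes moved by 0.42 without DT and by −0.24, −0.32 and −0.16 on days 1, 2 and 3. The genes called higher were then Prg2 and Ear6 at day 1, none on day 2, and Prg2, Epx, Ear2 and Ear6 at day 3. As a plain share of library counts, Prg2 was at 0.844% to 1.31% in DTRADQ at day 1, against 0.413% to 0.827% in Con, and at 0.693% to 1.27% in DTRADQ at day 3, against 0.365% to 0.601% in Con. Without DT this share overlapped, at 0.468% to 1.14% in DTRADQ, against 0.798% to 1.57% in Con. Scaled by totals, Ear1, Ear2 and Ear6 were called lower in DTRADQ without DT (−1.32, −0.98 and −0.82) and Ccr3 higher (0.75), and Prg2 (−0.64, adjusted p = 0.0675) and Prg3 (−0.61, adjusted p = 0.0660) did not pass. In a model of only the 2 groups compared, no member passed without DT (Ear sum −1.42, adjusted p = 0.104). Without Con replicates 3 and 4, 5 members were still called lower without DT, with log2 changes of −1.10 for Prg2, −1.02 for Prg3, −1.54 for Ear1, −1.22 for Ear2, −1.12 for Ear6 and −1.23 for the Ear sum. The calls of day 1 also rest on few mice: 2 remained (Prg2 and Ear6) without DTRADQ replicate 3 or 4 or without Con replicate 2, 3 or 4 of that day, while at day 3 no single library left fewer than 5. Epx at day 1 passed in only 17 of 32 fits that left out 1 library. Its call was also lost without single libraries of other times, with an adjusted p of 0.05001 to 0.05194.

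Other genes of eosinophil growth and recruitment were examined as lists, whose counts stand against the shares of all genes called in each direction given above (12.7% higher and 14.4% lower without DT, 0.888% and 3.02% at day 1, 4.40% and 4.12% at day 2, 8.80% and 14.1% at day 3). Of 11 cytokines and chemokines that act on eosinophils, 5 had enough reads to be tested, and at day 3 2 were higher in DTRADQ, 1 was lower and 2 did not pass (median log2 change 0.42). Without DT 2 of the 5 were lower, and at days 1 and 2 1 was higher each. Ccl7, a chemokine that CCR3 can bind, averaged 9.92 ± 2.99 CPM in DTRADQ and 1.17 ± 0.952 CPM in Con at day 3 (log2 change 3.10, SE 0.37, adjusted p = 3.4e-07), and it was higher at day 1 (4.27) and day 2 (3.22) as well. Ccl5, another ligand of this receptor, changed by 1.02 at day 3 (SE 0.31, adjusted p = 0.016) but was lower in DTRADQ without DT (−1.55). Tslp, an epithelial and stromal cytokine, changed by −0.86 at day 3 (SE 0.29, adjusted p = 0.031). Il5, the main growth factor of the lineage, had 4 reads in all 32 libraries together, Il3 had 0 and the eotaxin gene Ccl11 had 20, so that their levels were below what this depth can compare.

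Among 12 other receptors found on eosinophils, 11 were tested, and at day 3 3 were higher and 1 lower (median log2 change 0.30). Without DT 3 were higher and 1 lower. Day 1 had 1 higher, and day 2 had 1 higher and 1 lower. Siglecf, a surface lectin used to mark mouse eosinophils, was at 9.58, 10.6, 16.1 and 12.5 CPM in DTRADQ at day 3, against 8.15, 7.63, 8.62 and 4.82 CPM in Con, all DTRADQ libraries being higher (log2 change 0.74, SE 0.25, adjusted p = 0.033), and at day 1 it changed by 1.06 (SE 0.26, adjusted p = 0.013). Siglecf did not pass at day 2 (0.59, adjusted p = 0.153) or without DT (−0.11, adjusted p = 0.805). Csf2rb, the beta chain shared by the receptors of interleukin 3, interleukin 5 and GM-CSF, changed by 0.60 at day 3 (adjusted p = 0.041), and Csf2rb2, the mouse's second beta chain and a close relative whose reads may be shared, by 0.48 at day 3 (adjusted p = 0.039) and 0.73 at day 2 (adjusted p = 0.0091). Csf2rb was also higher without DT (0.58, adjusted p = 0.045). Il1rl1, the interleukin 33 receptor, was lower at day 2 (−1.08) and at day 3 (−1.35, SE 0.26, adjusted p = 0.00022).

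Of 12 transcription regulators of eosinophil commitment, 1 was higher at day 3, 3 were lower and 8 did not pass (median log2 change 0.08). Without DT 4 were lower, none was called at day 1, and 2 were higher at day 2. The higher one was Trib1, a pseudokinase that controls C/EBP alpha (0.51, SE 0.19, adjusted p = 0.046). Zfpm1 and Cebpa were also lower without DT (−1.46 and −0.96). At day 3 Gata1 averaged 70.7 ± 4.10 CPM in DTRADQ and 126 ± 16.5 CPM in Con (log2 change −0.83, SE 0.15, adjusted p = 0.00018), Zfpm1, its cofactor FOG1, changed by −1.46 (SE 0.41, adjusted p = 0.0098) and Cebpa by −0.77 (SE 0.23, adjusted p = 0.013). Gata1 and Zfpm1 also act in red cell precursors, and at day 3 5 of 8 erythroid markers were lower in DTRADQ and 2 higher. Whether red cell transcripts set the Gata1 value was not tested. Of 5 lipid mediator genes and cystatin F, 1 was lower without DT, none was called at days 1 and 2, and 2 were higher at day 3: Alox15, which mouse eosinophils express strongly, averaged 350 ± 119 CPM in DTRADQ and 129 ± 29.6 CPM in Con (log2 change 1.44, SE 0.45, adjusted p = 0.019), and Alox5 changed by 0.85 (SE 0.27, adjusted p = 0.024). Alox15 did not pass without DT (0.29, adjusted p = 0.670).

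Markers of other cells were counted at the same times, against the shares of all genes given above. Of 7 tested basophil and mast cell markers 1 was lower without DT, none was called at day 1, 1 was higher at day 2 and 2 were higher at day 3. Hdc (0.83) and Cma1 (1.38) were those of day 3, while the basophil proteases Mcpt8 (0.20) and Prss34 (0.44) did not pass on that day, and the mast cell genes Tpsab1, Mcpt4 and Tpsb2 had 3, 5 and 17 reads in all libraries together. Mcpt8 was the one that was lower without DT (−0.94, adjusted p = 0.00057), and its genotype by DT difference was called on all 3 days (1.33, 1.0 and 1.14). The summed level of this list was 1063 to 1717 CPM in DTRADQ at day 3, and 841 to 1232 CPM in Con of that day. Of 10 markers of late granules and mature neutrophils, 5 were lower in DTRADQ without DT, with a summed level of 106100 to 121400 CPM in DTRADQ, against 117700 to 264300 CPM in Con. After DT, 1 was higher at day 1 and 3 each at days 2 and 3, with a summed level of 112600 to 145500 CPM in DTRADQ at day 3, and 77490 to 130600 CPM in Con of that day. For genotype by DT, 6 of these 10 were called, all higher, on each of days 1, 2 and 3 (12.3%, 11.1% and 21.0% of all genes in either direction). Within Con against no DT, 6 were lower on each day (17.4%, 14.4% and 15.4% of all genes), and 1 was higher at day 3. No primary granule marker of 5 and no monocyte marker of 5 was called at days 1, 2 or 3, while without DT 2 primary granule markers were lower, and 2 monocyte markers were higher and 1 lower. Of 5 T and NK cell markers 2 were lower without DT, 4 at day 1 (median log2 change −1.11), 2 at day 2 and none at day 3. Of 7 B lineage markers 3 were lower without DT, none was called at day 1, 2 were lower at day 2, and at day 3 1 was higher and 2 were lower. Of 5 megakaryocyte and platelet markers 2 were lower without DT, none was called at day 1, 1 was higher at day 2 and 2 at day 3. Of the 8 erythroid markers 3 were lower without DT, none was called at day 1 and 2 were higher at day 2. Of 5 skeletal muscle markers 2 were higher in DTRADQ without DT, with a summed level of 24.6 to 278 CPM in DTRADQ, against 30.5 to 108 CPM in Con. None of the muscle markers was called at days 1 and 2. At day 3, 4 were higher, with a summed level of 91.5 to 612 CPM in DTRADQ, against 23.4 to 47.9 CPM in Con. The part of these cells in the eosinophil results was not tested.

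How the members vary from mouse to mouse was described by the deviations of log2 CPM from the group mean over the 32 libraries. Prg2 and Prg3 deviated together (Pearson r = 0.94), as did Ear2 and Ear6 (0.97), Prg2 and Ear6 (0.95) and Epx and Il5ra (0.79). Ccr3 was nearly independent of Prg2 (0.10) and closest to Il5ra and Ear10 (0.43 each), and Ear1 ran against Ear10 (−0.52). The points share libraries, depth and, for the Ear genes, reads. The genes outside the set whose deviations were most like the mean of Prg2, Prg3, Epx, the Ear sum, Il5ra and Ccr3 were Stx3 (r = 0.776), Alox15 (0.757), Perp (0.754), Siglecf (0.748), Dbt (0.694), Adora3 (0.692), a gene listed without a symbol (0.684), Rnf144b (0.676), Nckap1l (0.668) and Plk2 (0.666), against a median r of 0.013 over 11501 genes. Stx3 encodes a syntaxin of vesicle fusion and Adora3 an adenosine receptor. Of these 10, Alox15 (1.44), Siglecf (0.74), Adora3 (0.95), Nckap1l (0.48), Plk2 (1.24) and the gene without a symbol (0.39) were higher in DTRADQ at day 3, and Stx3 (0.10), Dbt (0.14), Perp (0.86) and Rnf144b (0.36) did not pass. Without DT, none of the 10 was called lower, where 14.4% of all genes were. The gene without a symbol (0.60) and Rnf144b (0.67) were called higher there. Only Siglecf was called at day 1 (1.06) and only Rnf144b at day 2 (0.64), both higher.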

How the data were processed

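Total RNA of whole femur marrow was sequenced after library making with Clontech's SMARTer kit, per the labels' protocols. STAR 2.0.4b and featureCounts 1.45 of Subread, bcl2fastq and the build GRCm38 are named in the submitters' processing notes. Whether counting used strand, and how it treated multi-mapping reads, is not given in the sources used here. Each gene has a deposited count, CPM value and RPKM value in each library, per the file headers. The counts were tested, and CPM and RPKM were only checked against them: deposited CPM equalled counts over library totals to within 4.4e-10 and deposited RPKM to a relative 3.8e-14.

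Counts were fitted in R 4.3.3 with edgeR 4.0.16: filterByExpr with a minimum count of 10, TMM, 1 quasi-likelihood model of the 8 group means, 13 contrasts, Benjamini-Hochberg adjustment of two-sided p-values over all genes of a contrast, threshold 0.05. SE is the log2 change over the square root of F. Summed Ear counts entered as further features. CPM here is TMM scaled. P-values measure the spread between mice. Alternatives were DESeq2 1.42.0, its size factors, library totals, no filter (28075 genes), limma 3.58.1 voom with library weights, only the groups compared, a replicate block, and leaving out libraries. The labels give replicate numbers 1 to 4 in every group without saying what a number marks. The deviations of same-numbered DTRADQ and Con libraries from their group means correlated at 0.17 to 0.212 without DT and 0.105 to 0.149 at day 3. At days 1 and 2 they correlated at −0.046 to 0.054 and −0.214 to 0.133. The main model did not pair libraries. A fit with the number as a block within each time, days 1 and 2 included, was added after seeing the data. The fit was also run on simulated counts with the same spread for every gene and known changes in some genes. That simulation held no difference in scaling between groups, so it does not bear on the low scaling factors. Named genes were the 9 members and, per list, up to 4 called at day 3, then at day 1 or 2; likeness used log2 of CPM plus 0.5 and genes whose mean log2 CPM was 1 or more. The members and lists were chosen with earlier results of these data known. Hdc, Cma1 and the other cell markers, and the genes of the closing observations, were named after their values were seen.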

Additional observations from a re-analysis of the deposited data

Results flagged for a closer look

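In 11 of 80 groups of 4 libraries (9 genes and the Ear sum in 8 groups) 1 library stood far from the other 3, where chance gives about 1 in 20. The 80 groups share libraries and, for the Ear genes, reads. They are not independent, so the count cannot be tested against that share. In Con at day 2, replicate 3 was the lowest for Prg3 (117 CPM, the others 176 to 186), Ear1 (95.0 CPM, the others 156 to 163), Ear6 (182 CPM, the others 296 to 316) and the Ear sum (425 CPM, the others 666 to 699). In Con at day 1, replicate 2 was the lowest for Ear1 (77.6 CPM, the others 128 to 140) and replicate 1 the highest for the Ear sum (905 CPM, the others 522 to 562). In Con at day 3, replicate 4 was the lowest for Epx (166 CPM, the others 247 to 254). In DTRADQ at day 1, replicate 1 was the lowest for Ear1 (59.6 CPM, the others 242 to 280) and replicate 2 the lowest for Ccr3 (59.3 CPM, the others 87.0 to 90.3). In Con without DT, replicate 1 was the lowest for Ear1 (264 CPM, the others 623 to 726) and the highest for Ear10 (23.7 CPM, the others 0.421 to 0.592).

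The genotype difference after DT differed from that without DT in 19 of 30 tests by the edgeR interaction. Of all genes, 12.3%, 11.1% and 21.0% were called in either direction at days 1, 2 and 3. The Ear sum is made of the reads of the Ear genes, so its tests are not independent of theirs. At day 1 the log2 values were 2.29 for Prg2 (adjusted p = 0.00027), 1.97 for Prg3 (0.00047), 2.61 for Ear1 (0.0009), 2.43 for Ear2 (6.2e-05), 2.61 for Ear6 (3.7e-05) and 2.56 for the Ear sum (2.3e-05). At day 2 they were 1.66 for Prg2 (adjusted p = 0.0052), 1.49 for Prg3 (0.0056), 2.51 for Ear1 (0.0016), 2.19 for Ear2 (0.00035), 2.05 for Ear6 (0.00087) and 2.18 for the Ear sum (0.00029). At day 3 they were 2.18 for Prg2 (adjusted p = 0.00018), 1.88 for Prg3 (0.0003), 1.57 for Epx (0.012), 2.36 for Ear1 (0.0011), 2.70 for Ear2 (8.9e-06), 2.61 for Ear6 (1.8e-05) and 2.61 for the Ear sum (9.8e-06). All 3 days share the 8 libraries without DT, among them the Con libraries with low scaling factors.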

How the results depend on the processing

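Of 602 values of single genes under alternatives other than leaving out 1 library, 556 kept their direction and their side of the threshold. In the counts of genes called between DTRADQ and Con, the model of only the groups compared gave 0 without DT and 5 at day 2. Library totals gave 2 at day 1, 4 at day 3 and 3 for genotype by DT at day 2. At day 2 voom, DESeq2 and the fit without Con replicates 3 and 4 of no DT gave 3 each. For DTRADQ at day 1 against no DT, voom and the fit without those 2 libraries gave 1 each, and for DTRADQ at day 3 against no DT, no filter, only the groups compared, voom, DESeq2 and the fit without those 2 libraries gave 2 each. The Ear sum lost its call without DT in the model of only the groups compared (−1.42). At day 2 it passed with only the groups compared (0.73), voom (0.71), DESeq2 (0.76), the exact permutation test (0.74) and without those 2 libraries (0.74). In DTRADQ at day 3 against no DT it passed with DESeq2 size factors and DESeq2 (0.67 each), only the groups compared (0.65), voom (0.61), 14 Ear genes (0.70) and without those 2 libraries (0.68). In DTRADQ at day 2 against no DT library totals gave −0.02. Changes of sign, none of a called value, were seen with library totals for Epx without DT (0.17), Ccr3 at day 1 (−0.01) and Il5ra at day 2 (−0.12), and without those 2 libraries for Ear10 (−0.22) and Il5ra (−0.16) without DT. The cause of these shifts was not tested. Leaving out 1 library gave 2 to 5 genes at day 1, 0 to 2 at day 2, 5 to 8 at day 3 and 5 to 6 without DT; 0 to 2 for DTRADQ at day 1 and 0 to 3 at day 3 against no DT. The Ear sum then ran from 0.59 to 0.81 at day 2 and, against no DT, from 0.42 to 0.86 in DTRADQ at day 1 and from 0.49 to 0.94 at day 3. Without DT, Epx ran from −0.51 to 0.06, Ear10 from −0.25 to 4.48 and Il5ra from −0.08 to 0.36. At day 3 Il5ra did not pass without DTRADQ replicate 4 (0.79, adjusted p = 0.0912) or Con replicate 2 (adjusted p = 0.0616) or 4 (adjusted p = 0.0551), Ccr3 without Con replicate 3 (0.55, adjusted p = 0.0739), and Prg3 without DTRADQ replicate 3 (adjusted p = 0.0503) or Con replicate 4 (adjusted p = 0.0618). The replicate block over all times changed 1 call between DTRADQ and Con, Ear10 at day 3 (3.82, adjusted p = 0.0238), and lost Ear10 in Con at day 2 against no DT. The replicate block within each time, chosen after seeing the data, gave the call of Ear10 at day 3 and changed no other call between DTRADQ and Con or for genotype by DT. By correlation, 7 of 16 libraries matched best with their own number. Ear10 at day 2 was filtered out of the model of only the groups compared, which gave no value. Depth limits Il5ra and Ear10 most.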

Other observations

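The 15 libraries with 121 to 961 Ear10 reads and the 17 with 1 to 8 were set side by side for every gene with a mean of at least 5 reads, 14974 genes in all, as a description made after the values were seen and without a test. In 7 genes the CPM ranges of the 15 and the 17 libraries did not overlap, and all 7 lie between 43922720 and 54409472 on chromosome 14 of GRCm38. Ear10 itself is one of them, and its separation was fixed in advance, since the libraries were divided by their Ear10 reads. Of the 629 stretches of 50 bases in the Ear10 transcripts, 148 also occur in Ear-ps2, so these 2 genes are not independent of each other. The part of shared reads in the Ear-ps2 values was not tested. The pseudogene Ear-ps2 had 315 to 3304 reads in the 15 libraries and 0 to 9 in the 17, Ear-ps5 had 41 to 333 and 0 to 1, and Ear-ps10 had 9 to 76 and 0 to 1. Rnase2a, a ribonuclease gene of the same superfamily, had 42 to 240 reads in the 15 libraries and 3 to 15 in the 17. Ccnb1ip1 had 12 to 282 and 0 to 3, and the amino acid transporter gene Slc7a7 had 238 to 593 and 16 to 357. The 15 libraries are 11 of DTRADQ (3 without DT and 3, 1 and 4 on days 1, 2 and 3) and 4 of Con (1, 2, 0 and 1). Whether the mice differ in their DNA in this stretch was not tested.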
